A study of Mus musculus with 16 samples.

Results

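In mouse pre-B cells stimulated for 1.5 h, 450 genes had more reads outside exons, with exon reads still below 1.2 times the control level. They were chosen by 4 conditions on unique reads (reads placed at 1 position): at least 50 outside-exon reads in the control or the 1.5 h library, at least 5 exon counts per 1000000 exon reads (CPM) in the control, an outside-exon ratio of 1.5 h to control of at least 1.5, and an exon ratio below 1.2. Outside-exon reads are the reads of a gene minus its exon reads, given per 1000000 gene reads (RPM). Of the 38918 features in the deposited tables, 7864 had enough reads by the first pair of conditions, and the 450 chosen genes are 5.72% of these. Both ratios at 1.5 h chose the genes, so their values at that time are a description.

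The cells were pre-B cells of Blnk-/- mice. All of them, the control included, carried a retrovirally delivered fusion of BLNK to ERt2, which the sample titles call tamoxifen-inducible. BLNK is the adaptor protein that couples the pre-B cell receptor to its downstream enzymes. The groups were an unstimulated control and cells stimulated for 0.5, 1.5 or 5 h. Age, strain background and dose are not given in the labels. The 16 samples carry 1 index per condition and lane numbers, and were read as 4 sequencing lanes of each of 4 libraries, 1 library per condition. There is therefore no biological replicate and no test. Intervals given as 95% intervals are exact (Clopper-Pearson) and cover counting error only: without molecular identifiers, 2 reads may stem from 1 molecule.

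Most mammalian genes are interrupted by introns, which are transcribed and then removed by splicing. Reads in introns come largely from precursor RNA that is short-lived, whereas exon reads are dominated by mature mRNA, which can last for hours. When transcription of a gene changes, precursor RNA can therefore move sooner than the mRNA pool, most visibly for abundant and stable mRNAs. Unspliced transcripts, retained introns, intron-encoded RNAs and other genes lying in an intron also give such reads, and a poly(A)-selected library such as these holds only part of the precursor RNA.

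MYC and related factors can bind the letters CACGTG, the E-box. The promoters of 4 of the named genes that hold these letters are shown as examples. Each is 1 window of 300 bases from RefSeq (build GRCm38.p6), from 250 bases before a transcript start to 50 after it, with the E-box in capitals. Hspd1, a mitochondrial chaperone (chr1:55088194-55088493, minus strand), Utp20, a factor in small ribosomal subunit processing (chr10:88826765-88827064, minus strand), Rpusd4, a mitochondrial RNA modifying enzyme (chr9:35267631-35267930, plus strand), and Ptprs, a receptor tyrosine phosphatase (chr17:56476431-56476730, minus strand), read 5′ to 3′ as follows.
Hspd1: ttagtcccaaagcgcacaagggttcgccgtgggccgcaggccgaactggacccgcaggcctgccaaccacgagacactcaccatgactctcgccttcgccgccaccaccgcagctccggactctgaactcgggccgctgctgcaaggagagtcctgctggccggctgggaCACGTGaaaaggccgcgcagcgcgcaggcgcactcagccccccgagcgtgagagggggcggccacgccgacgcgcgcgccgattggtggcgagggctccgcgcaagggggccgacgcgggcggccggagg
Utp20: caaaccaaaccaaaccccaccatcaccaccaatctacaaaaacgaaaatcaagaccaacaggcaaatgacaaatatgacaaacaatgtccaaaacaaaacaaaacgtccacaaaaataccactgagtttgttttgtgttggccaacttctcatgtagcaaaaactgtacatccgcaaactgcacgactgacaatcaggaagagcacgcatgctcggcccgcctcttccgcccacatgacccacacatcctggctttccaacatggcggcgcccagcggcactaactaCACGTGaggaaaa
Rpusd4: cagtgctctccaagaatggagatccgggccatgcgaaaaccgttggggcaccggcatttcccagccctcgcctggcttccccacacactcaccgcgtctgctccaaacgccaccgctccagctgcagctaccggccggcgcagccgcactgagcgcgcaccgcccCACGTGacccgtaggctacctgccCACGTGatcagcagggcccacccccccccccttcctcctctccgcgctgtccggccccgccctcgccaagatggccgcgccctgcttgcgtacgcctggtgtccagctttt
Ptprs: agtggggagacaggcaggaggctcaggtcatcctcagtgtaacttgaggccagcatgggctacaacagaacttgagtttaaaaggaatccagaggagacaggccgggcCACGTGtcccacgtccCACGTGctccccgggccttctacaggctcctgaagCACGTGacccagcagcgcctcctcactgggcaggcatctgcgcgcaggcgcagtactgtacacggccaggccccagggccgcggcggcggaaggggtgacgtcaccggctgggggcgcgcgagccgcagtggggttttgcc
The Rpusd4 window holds 2 E-boxes and the Ptprs window 3, whereas those of Hspd1 and Utp20 hold 1 each. Among the named genes, Runx1, Mettl1, Tfdp1 and Gyk also had a window with these letters, which is not shown. Of the 450 genes, 363 had a window in the RefSeq table by current or older symbol, and 69 of them (19.0%) held CACGTG in at least 1 window. The share was 12.9% among all 6385 matched features with enough reads, 21.6% among the 403 matched features in which both measures were higher at 1.5 h, and 8.09% over all 27025 genes of the table. CACGTG reads the same on both strands.

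A further 5 motifs were searched on both strands in the same windows, and none of them contains the E-box letters. The AP-1 letters TGACTCA were in 3.31% of the matched chosen genes and 3.87% of all matched features with enough reads. The corresponding shares were 3.86 and 3.71% for the CRE letters TGACGTCA, 1.93 and 1.57% for the EGR letters GCGTGGGCG, 10.5 and 11.6% for the ETS letters CCGGAAGT and 2.48 and 3.01% for the FoxO letters TGTTTAC. A match is a description of these letters and not of a bound site. Myc, which was not itself among the chosen genes, had 349 exon CPM in the control, 1093 at 0.5 h, 1036 at 1.5 h and 403 at 5 h. Its part in the values of the chosen genes was not tested.

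At 1.5 h the chosen genes had outside-exon ratios between 1.50 and 3.62, with a median of 1.68, and exon ratios between 0.737 and 1.2, with a median of 1.07. Across all features with enough reads, 11.9% had an outside-exon ratio of at least 1.5, so 484 further features met that condition with an exon ratio of 1.2 or more. The genes just inside the outside-exon threshold were Canx, an endoplasmic reticulum chaperone, and Peo1, the mitochondrial DNA helicase, both at 1.50. Setd7 and Alg1 were just outside it, also at 1.50 when rounded. At the exon limit, Gyk (glycerol kinase) and Eif3b, a subunit of initiation factor eIF3, were just inside at a rounded 1.2, while Ncl (nucleolin) and Cnbp were just outside at the same rounded value. The nucleolin gene had an outside-exon ratio of 2.09, so the limit separated it from the chosen genes by its exon value alone.

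**Figure D1:**
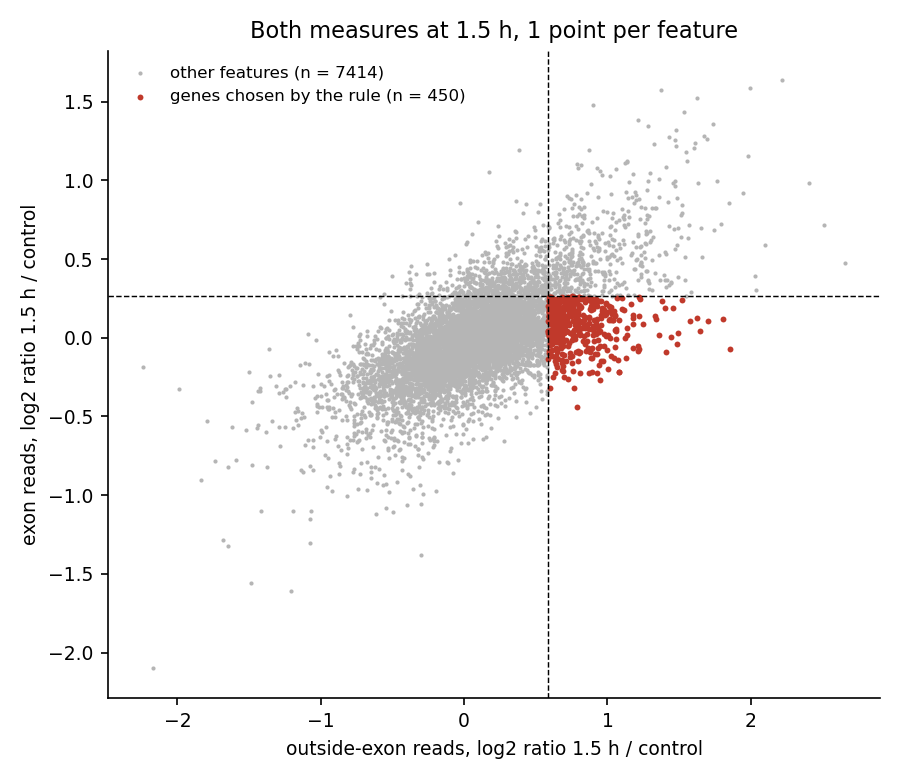
Log2 ratio of 1.5 h to control for outside-exon reads (x axis) and exon reads (y axis), 1 point per feature with enough reads, with the thresholds of the rule dashed. The 450 chosen genes (red) fill the lower right corner by construction, and the other 7414 features (grey) include the 484 with both measures higher.

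Counting error matters for these genes, because a median member had 178.5 outside-exon reads in the control, with a range of 15 to 4009. The 95% interval of the outside-exon ratio lay above 1 in 446 of the 450 genes and at or above 1.5 in 119. When the rule was applied to lanes 1 and 2 with a minimum of 25 outside-exon reads, it chose 546 genes with a median ratio of 1.69 in those lanes. In lanes 3 and 4, which that choice did not use, their median ratio was 1.54 and 305 of them (55.9%) were at 1.5 or more, beside 13.1% of all features with enough reads. Lanes 3 and 4 re-read the same libraries, so this describes counting and not the condition. Leaving out each lane in turn, 249 of the 450 genes were chosen all 4 times.

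The outside-exon reads lay within the spans of multi-exon genes. The 3083 features with a single exon held 2 such reads in all in the control library, so by these gene models the reads fall in introns. A separate class of reads, those crossing an intron-exon boundary, was counted by the authors among exon reads, since it never exceeded them and was 0 wherever they were 0. Summed over the chosen genes, boundary reads were 279 RPM in the control, 313 at 0.5 h, 453 at 1.5 h and 336 at 5 h. This is the same order of libraries as for outside-exon reads. Of the 264 chosen genes with at least 10 boundary reads in the control, 238 (90.2%) had more at 1.5 h, with a median ratio of 1.56, beside 47.4% and 0.978 for 4880 other features. Boundary reads come from the same pair of libraries as the rule, and these values are given without a test.

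Over the time course the chosen genes were at their highest outside exons at 1.5 h and at their highest in exons at 5 h. Their summed outside-exon reads were 3895 RPM in the control, 4450 at 0.5 h, 6733 at 1.5 h and 5049 at 5 h. The lanes of a library differed little, at 3883 to 3911 in the control and 6706 to 6766 at 1.5 h, and the lanes of no pair of libraries overlapped. Summed exon reads were 64680 CPM in the control, 63163 at 0.5 h, 67225 at 1.5 h and 72120 at 5 h. Reads spanning exon-exon junctions, which come from spliced RNA, followed the exon reads with 83377, 80836, 85992 and 93993 per 1000000 junction reads in the same order.

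Gene by gene, the outside-exon level was highest at 1.5 h in 407 of the 450 genes, which the rule favours, at 5 h in 26 and at 0.5 h in 17. The exon level was highest at 5 h in 274 genes, at 1.5 h in 102, in the control in 46 and at 0.5 h in 28. The rule limits the exon ratio at 1.5 h, which works against an exon peak at that time. The features not chosen had no such limit. Among the other features with enough reads, the outside-exon level was highest at 5 h in 42.4% and at 1.5 h in 29.1%. It was highest at 0.5 h in 14.1% of them. Their exon level was highest at 5 h in 27.8% and in the control in 28.9%. It was highest at 1.5 h in 24.1% and at 0.5 h in 19.2%. In 287 genes (63.8%) the outside-exon ratio to control was lower at 5 h than at 1.5 h while the exon ratio was higher, compared with 13.2% of the other features. That contrast shares the 1.5 h library with the rule.

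**Figure D2:**
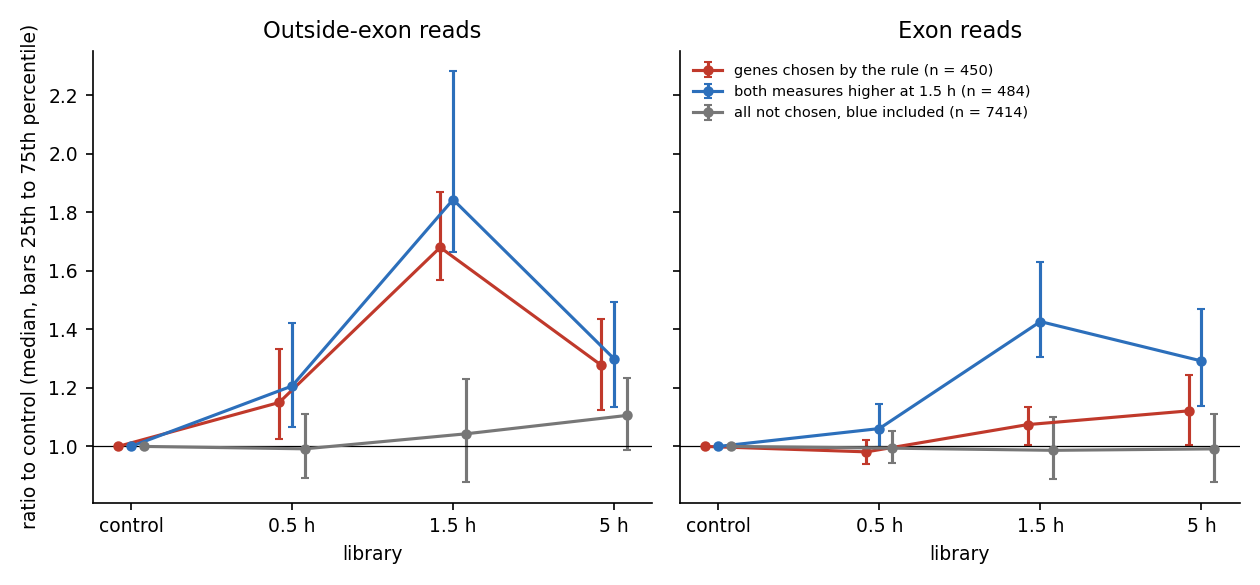
Median ratio to control in each library for outside-exon reads (left) and exon reads (right), with bars for the interquartile range over genes. The chosen genes (red) peak at 1.68 outside exons at 1.5 h and reach 1.12 in exons at 5 h, the features with both measures higher (blue) peak at 1.5 h in both, and all features not chosen (grey, blue included) stay near 1 in exons.

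At 0.5 h the median outside-exon ratio of the chosen genes was 1.15, against 0.992 for the other features, and 62 genes (13.8%) had a ratio of at least 1.5, a level reached by 3.47% of all features with enough reads. Their median exon ratio was 0.981, and 5 genes (1.11%) had an exon ratio of at least 1.2, against 4.29% of all features. These 5 were Runx1, Zfp516, Hdac4, Tfb2m and 1 gene with a predicted symbol. The control library entered both this comparison and the choice of genes.

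At 5 h the outside-exon ratio had come down to a median of 1.28, and 74 genes (16.4%) were at 1.5 or more, against 4.69% of all features with enough reads. The other features had a median of 1.11, so the whole set of outside-exon reads was also higher at 5 h: they made up 13% of gene reads in the control and at 0.5 h, 13.8% at 1.5 h and 14.6% at 5 h. Against the 0.5 h library, which did not choose the genes, the median outside-exon ratio at 5 h was 1.09 for the chosen genes and 1.12 for the others. From 0.5 h to 5 h the chosen genes thus rose no more than the rest. Their median ratio to control was already 1.15 at 0.5 h, against 0.992 for the others. With outside-exon reads scaled by their own total, 311 genes were chosen, 22 of them (7.07%) were at 1.5 or more at 5 h, and the median log2 ratio of 5 h to 0.5 h was -0.073 in place of 0.12.

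Exon reads at 5 h were at least 1.2 times the control in 148 of the 450 genes (32.9%), against 14.3% of all features with enough reads. Only 14 (3.11%) reached 1.5, against 2.1% of all features, and 14 (3.11%) were lower by 1.2 times or more, against 16.7%. The median exon ratio was 1.12 in the chosen genes and 0.992 in the others. Against 0.5 h, where neither library chose the genes, 175 genes (38.9%) had an exon ratio of at least 1.2, against 13.1% of all features. The largest group, 249 genes, had an outside-exon ratio below 1.5 and an exon ratio within 1.2 times of the control at 5 h, in either direction. A further 115 had a higher exon ratio with the outside-exon ratio back below 1.5, and 33 had both measures higher. These groups were counted in the chosen genes only. An exon ratio of 1.2 or more at 5 h therefore describes a minority of the chosen genes. The 95% interval of the ratio lay above 1 in 273 of them, which was not counted for all features. The ratio itself was above 1 in 343 of the 450, against 3892 of the 7864 features with enough reads.

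Within ranges of the exon ratio at 1.5 h, the share with an exon gain at 5 h was also higher in the chosen genes than in the others. Below 0.9 this was not clear. Among genes with a 1.5 h exon ratio of 1.1 to 1.2, 47.1% of the 174 chosen genes had an exon ratio of at least 1.2 at 5 h, against 21.9% of the 812 others. Between 1.0 and 1.1 the shares were 32.1% of 165 and 10.5% of 1550. Between 0.9 and 1.0 they were 13.8% of 87 and 2.46% of 1948. The share was also higher in bins of higher outside-exon ratio at 1.5 h, a ratio that shares the control library with the exon ratios. It was 1.53% of features with a ratio below 0.8, 4.44% between 0.8 and 1, 28.1% of the 288 chosen genes nearest the threshold of 1.5 and 53.1% of the 64 genes at 2 or more. Measured against 0.5 h, the median exon ratio at 5 h was 0.870 in the lowest of these bins and 1.24 in the highest. The bins already differed in exons at 1.5 h, with medians of 0.828 and 1.08 against control, and the lowest bin was at 0.836 at 5 h. Within the chosen genes the medians against 0.5 h did not follow the order of the bins, at 1.13, 1.11 and 1.24.

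**Figure D3:**
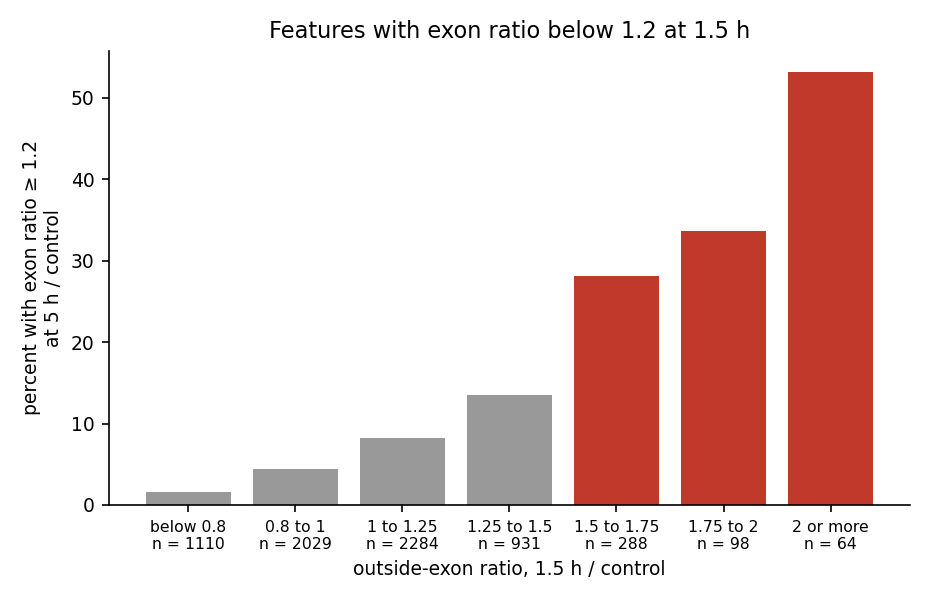
Percent of features with an exon ratio of at least 1.2 at 5 h against control (y axis, bars), by the outside-exon ratio at 1.5 h (x axis), among features with enough reads and an exon ratio below 1.2 at 1.5 h. The chosen genes (red) run from 28.1% to 53.1%, and the other features (grey) from 1.53% to 13.5%.

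A pair of further sets of features with enough reads was followed in the same way. In the 484 with both measures higher at 1.5 h, the exon median was 1.43 at 1.5 h and 1.29 at 5 h, and 311 (64.3%) were at 1.2 or more at 5 h. The 123 features of the mirror image had an outside-exon ratio at or below the inverse of 1.5 and an exon ratio above the inverse of 1.2 at 1.5 h. Of these, 70 (56.9%) had exon reads lower by 1.2 times or more at 5 h, against the 16.7% given above. The median exon ratio at 1.5 h was 0.992 for all features with enough reads. It was already 0.889 in these 123, with 112 of them below 1. Their summed outside-exon reads were 1265, 1095, 744 and 1147 RPM in the control and at 0.5, 1.5 and 5 h, while their summed exon reads were 11957, 12239, 11320 and 10656 CPM. In their sums the mirror set and the chosen genes had their outside-exon extreme at 1.5 h and their exon extreme at 5 h. The features with both measures higher had both at 1.5 h. The ratios at 1.5 h chose all of these sets, which favours this order, so it is a description.

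Genes of nucleotide and folate synthesis, which supply precursors for DNA and RNA, were 1 of the groups in which most chosen genes had more exon reads at 5 h. This group and those of enzymes, chaperones, transport, translation and polymerase genes below were drawn up after the values had been seen, so their counts are no independent evidence. Of 36 such genes with enough reads, 11 (30.6%) were chosen, beside 5.72% of all features, and 8 of the 11 had an exon ratio of at least 1.2 at 5 h. Cad (chr5:31054780-31078479 in mm10), the enzyme of the first steps of pyrimidine synthesis, had 1.71, 2.62, 5.09 and 2.69 outside-exon RPM in the control and at 0.5, 1.5 and 5 h. Its exon levels were 222, 244, 240 and 322 CPM, so the 1.5 h library was highest outside exons and the 5 h library in exons. The outside-exon ratio was 2.98 at 1.5 h (95% interval 2.19 to 4.11) and the exon ratio 1.45 at 5 h (1.40 to 1.50). Gart, a trifunctional enzyme of purine synthesis, had 9.02, 9.31, 23.5 and 12.7 outside-exon RPM and 165, 175, 193 and 242 exon CPM. It was flat outside exons at 0.5 h, with an exon ratio of 1.47 at 5 h. Atic, which completes purine synthesis, and Mthfd1, a folate enzyme, had exon ratios of 1.40 and 1.34 at 5 h. Dctpp1, which breaks down dCTP and related nucleotides, had 22, 20, 65 and 33 outside-exon reads and an exon ratio of 1.3 at 5 h, so its outside-exon ratio of 3.08 has a wide interval (1.88 to 5.25).

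Genes of polyamine and amino acid synthesis were chosen most often after ribosomal proteins, with 11 of 20 (55.0%), but only 4 of the 11 had an exon ratio of at least 1.2 at 5 h. Odc1, the rate-limiting enzyme of polyamine synthesis, had 1.44, 2.77, 3.25 and 1.74 outside-exon RPM and 145, 135, 159 and 179 exon CPM. Its outside-exon level was already high at 0.5 h. Aldh18a1, an enzyme of proline synthesis, had 16.6, 16.4, 32.9 and 18.0 outside-exon RPM, highest at 1.5 h alone, but exon levels of 163, 158, 165 and 159 CPM. Phgdh, the first enzyme of serine synthesis, was likewise highest outside exons at 1.5 h, with 24.5, 21.5, 51.2 and 22.0 RPM, and had an exon ratio of 1.17 at 5 h (1.12 to 1.23). Only 23.6% of its exon reads were unique, because near-identical copies of its sequence share reads. Of 19 aminoacyl-tRNA synthetases, the enzymes that charge tRNAs, 9 were chosen (47.4%), and 3 of these 9 had an exon ratio of at least 1.2 at 5 h. Eprs, which charges 2 amino acids, had 13.5, 14.9, 27.1 and 18.6 outside-exon RPM and 390, 378, 421 and 485 exon CPM, an exon ratio of 1.24 at 5 h.

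**Figure D4:**
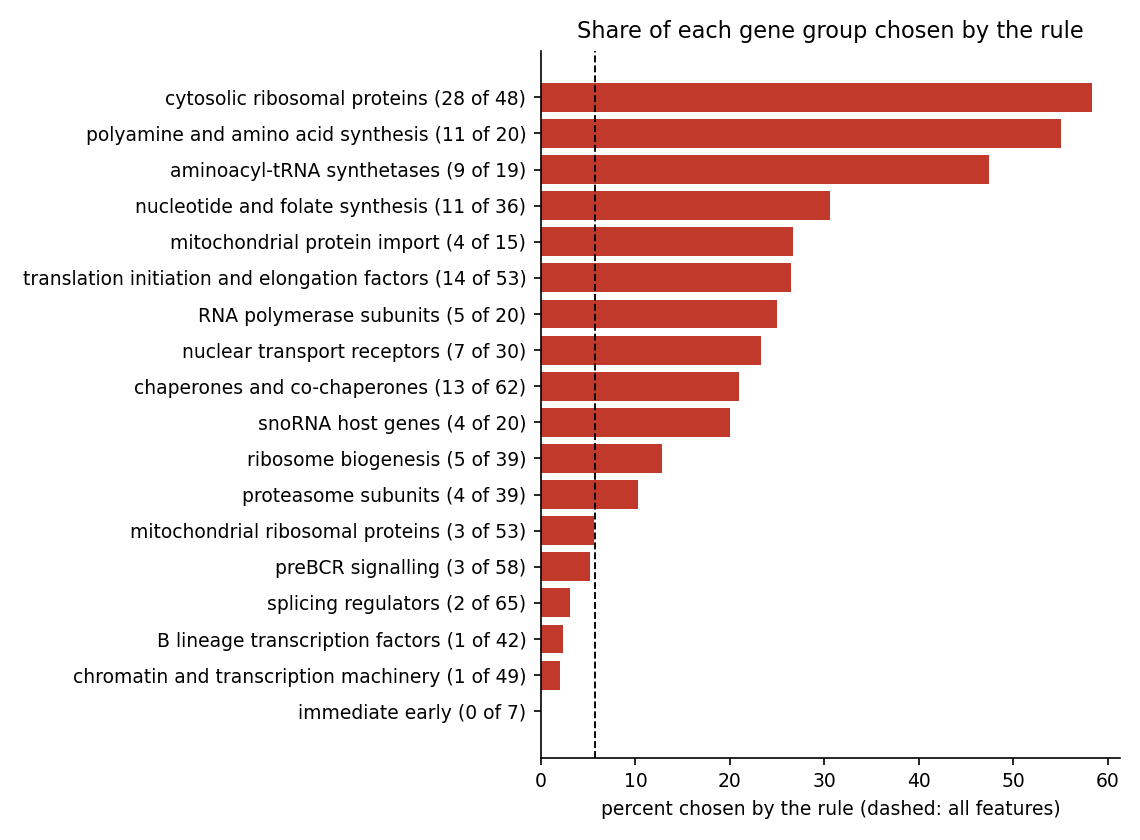
Percent of the genes with enough reads in each gene group (y axis, with counts) that were chosen by the rule, with the 5.72% of all features dashed. Cytosolic ribosomal proteins, polyamine and amino acid synthesis and tRNA synthetases stand at 47.4% to 58.3%, and groups of signalling and transcription factors below the dashed line.

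In ribosome biogenesis, 5 of 39 genes (12.8%) were chosen and 29 had both measures higher at 1.5 h, so most of that group was past the exon limit by then. The 5 were Npm1, Polr1a, Polr1e, Tcof1 and Utp20, and 4 of them had an exon ratio of at least 1.2 at 5 h. Of all 39 genes of the group, 35 reached that ratio, so this was not particular to the chosen genes. Npm1 (chr11:33152287-33163206), an abundant nucleolar chaperone, had 13, 21, 36.5 and 21.4 outside-exon RPM and 691, 644, 707 and 886 exon CPM. Utp20 had 4.82, 4.32, 9.16 and 8.21 outside-exon RPM and 85.3, 85.8, 98.2 and 154 exon CPM. In Utp20 the outside-exon level stayed high at 5 h, with a ratio of 1.70 (1.39 to 2.09), and the exon ratio was 1.81 (1.72 to 1.90). Polr1a, the largest subunit of RNA polymerase I, and Tcof1, a nucleolar factor of rRNA gene transcription, had exon ratios of 1.52 and 1.29 at 5 h, and Polr1e, a second polymerase I subunit, 1.13.

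**Figure D5:**
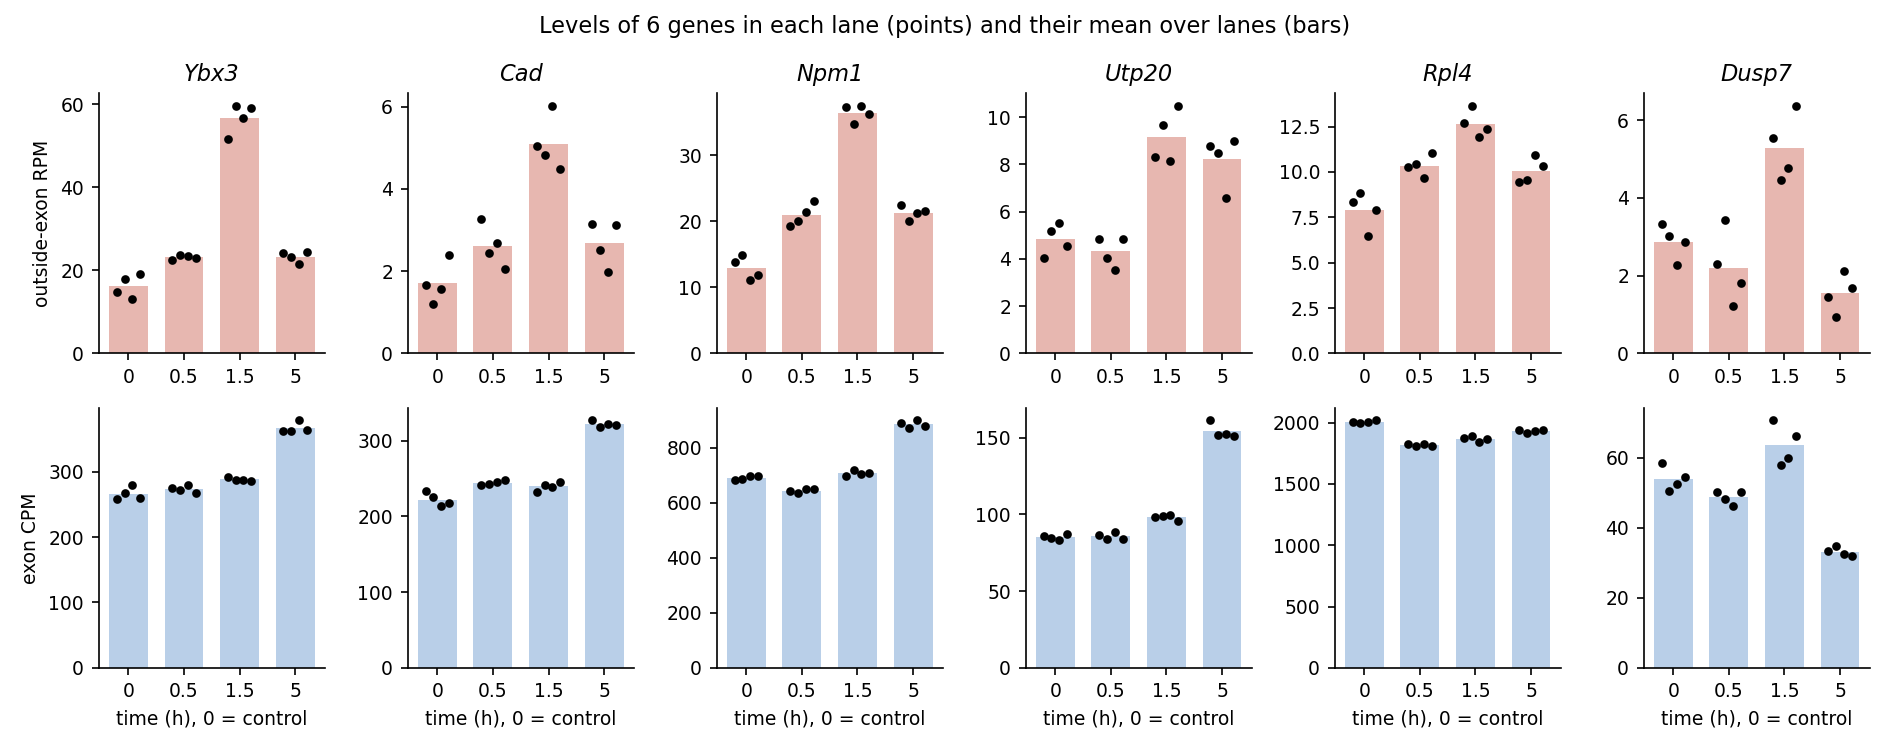
Outside-exon RPM (top) and exon CPM (bottom) of 6 chosen genes in the control (0) and at 0.5, 1.5 and 5 h, with 1 point per lane and bars for the mean over the 4 lanes. In Ybx3, Cad and Npm1 the top row peaks at 1.5 h and the bottom row at 5 h. Utp20 stays high at 5 h in the top row. Rpl4 is lowest in exons at 0.5 h and stays below the control, and Dusp7 is lowest at 5 h in both rows.

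Chaperones and their partners had 13 chosen genes of 62 (21%), 7 of them with an exon ratio of at least 1.2 at 5 h. Hspd1, whose promoter is shown above, had 5.30, 6.42, 15.2 and 7.95 outside-exon RPM and 157, 157, 186 and 240 exon CPM, an exon ratio of 1.52 at 5 h. Its partner Hspe1 overlaps it in the gene models, so the outside-exon reads of Hspe1 (36, 64, 108 and 45) may belong to either gene. Nuclear transport receptors and their partners had 7 of 30 (23.3%). In that group Rcc2, a chromosome condensation protein of the RCC1 family, had the most outside-exon reads of all chosen genes, with 4009, 4234, 7908 and 5456. Its outside-exon ratio of 2.06 at 1.5 h is accordingly precise (1.98 to 2.14), and its exon levels were 981, 1008, 1059 and 1265 CPM. The tRNA exporter Xpot had an exon ratio of 1.33 at 5 h.

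Cytosolic ribosomal proteins were the group with the highest share of chosen genes, 28 of 48 (58.3%), and their exon reads were flat. The 28 genes had a median outside-exon ratio of 1.81 at 1.5 h and a median exon ratio of 1.003 at 5 h, and 2 of them had an exon ratio of at least 1.2. Rpl4, of the large subunit, had 7.88, 10.3, 12.7 and 10.1 outside-exon RPM and 2006, 1816, 1867 and 1932 exon CPM. Its exon reads were at 0.964 of the control at 5 h. Rplp1, a stalk protein of the large subunit, had the largest outside-exon ratio of the chosen genes at 1.5 h, 3.62, but from 15 and 52 reads (2.005 to 6.92). Many processed copies of ribosomal protein genes exist, and the median share of unique exon reads in the 28 was 20.2%, against 99.97% in the other chosen genes. With total in place of unique reads, 36 of 61 ribosomal proteins (59.0%) were chosen, and none of the 36 had an exon ratio of at least 1.2 at 5 h. Several of these genes carry small nucleolar RNAs in their introns, and the part of these in the outside-exon reads was not tested.

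Translation initiation and elongation factors had 14 chosen genes of 53 (26.4%), 2 of them with an exon ratio of at least 1.2 at 5 h. One was Eif3b, with 388, 389, 466 and 538 exon CPM and an outside-exon ratio back at 0.957 at 5 h. RNA polymerase subunits (5 of 20, 25%) and mitochondrial protein import (4 of 15, 26.7%) were chosen more often than the 5.72% of all features. The import group counted Phb and Phb2, scaffold proteins of the inner mitochondrial membrane rather than import proteins, beside Timm50 and Tomm40. Proteasome subunits were at 4 of 39 (10.3%), a count too small to set apart from the 5.72%. Of the 5, 4 and 4 chosen genes of these groups, 2, 1 and 0 had an exon ratio of at least 1.2 at 5 h. These are too few to set beside the 14.3% of all features. Mitochondrial ribosomal proteins were chosen about as often as all features, 3 of 53 (5.66%). Without the ribosomal proteins of the cytosol, 146 of 422 chosen genes (34.6%) had an exon ratio of at least 1.2 at 5 h.

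Genes of pre-B cell receptor signalling and B cell identity were chosen at or below the share of all features. In signalling, 3 of 58 were chosen (5.17%): Akt1 and Lyn, which are kinases, and Orai1, the calcium channel subunit, with exon ratios of 0.984, 1.05 and 0.866 at 5 h. Among B lineage transcription factors 1 of 42 was chosen, Runx1 (chr16:92601467-92826066), with 118, 142, 206 and 151 outside-exon RPM and 230, 280, 262 and 269 exon CPM. Its exon level was highest at 0.5 h, before the outside-exon peak, and it has alternative promoters. Srsf5 and Tardbp, which regulate splicing, were the 2 chosen of 65, both with an exon ratio of 1.2 at 5 h, and Hdac4, a histone deacetylase, the 1 of 49 in the chromatin list. Host genes of snoRNAs differed from these lists, with 4 of 20 chosen (20%, beside 5.72% of all features), among them Cct6a, Rpl4 and Taf1d. No chosen gene was among the 7 immediate early genes, 17 NF-kB and NFAT targets, 19 FoxO targets, 19 IL-7 and STAT5 genes, 17 G1 genes or 9 clock genes with enough reads. These lists are short, and beside a share of 5.72% a count of 0 in any of them is near the background.

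The largest exon ratios at 5 h were in genes of varied roles. Map2, a microtubule-associated protein, had 6.62, 7.88, 7.43 and 15.9 exon CPM, a ratio of 2.41 (2.02 to 2.87), and its outside-exon ratio was also highest at 5 h, at 2.32. Chit1, a chitinase, had 10.3, 15.0, 15.8 and 28.6 outside-exon RPM and 23.4, 24.3, 27.1 and 44.8 exon CPM. In these 2 genes both measures were highest at 5 h, unlike Cad or Npm1. Cmss1, the insulin-degrading enzyme gene Ide, Nlrc5, an activator of MHC class I genes, Creg1 and Mpp6 had exon ratios of 1.58 to 1.70. Ide had its outside-exon peak at 1.5 h (438, 413, 871 and 575 reads) and its highest exon level at 5 h (169, 169, 186 and 280 CPM).

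Among the chosen genes with over 100 outside-exon reads in the control, the largest outside-exon ratio was that of Ybx3 (chr6:131364858-131388450), which encodes a cold-shock domain protein that binds RNA and DNA. It had 16.2, 23.2, 56.8 and 23.4 outside-exon RPM, and its 1.5 h library was higher than the other 3 in every lane. Its exon levels were 266, 274, 289 and 367 CPM. The outside-exon ratio was 3.50 at 1.5 h (3.18 to 3.86) and the exon ratio 1.38 at 5 h (1.34 to 1.42).

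In 14 genes the exon reads were lower at 5 h by 1.2 times or more. Dusp7, a phosphatase that acts on ERK kinases, had 2.88, 2.19, 5.28 and 1.54 outside-exon RPM and 54.0, 48.8, 63.6 and 33.2 exon CPM. It was highest at 1.5 h and lowest at 5 h by both measures, with an exon ratio of 0.615 at 5 h (0.56 to 0.67). Prr5, a component of mTOR complex 2, and Pcbp4, an RNA-binding protein, had outside-exon ratios of 0.619 and 0.669 and exon ratios of 0.626 and 0.673 at 5 h. The adaptor gene Shf had an exon ratio of 0.644. Mettl1, a tRNA methyltransferase, differed from these: its outside-exon ratio was 2.05 at 5 h while its exon ratio was 0.743. Rpusd4, whose promoter is shown above, had 39, 46, 79 and 45 outside-exon reads and 41.1, 33.2, 35.4 and 31.7 exon CPM, lowest in exons at 5 h.

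Some genes were already higher outside exons at 0.5 h. Among the largest ratios at that time were those of Phb2, a scaffold protein of the inner mitochondrial membrane, Rplp1 and Adnp2. They had 15 to 102 reads in the control and 38 to 231 at 0.5 h, and counting error is large at such depths. In Adnp2 the 0.5 h library held the most outside-exon reads of the 4. Among genes with many reads, Ptprs, Ttll11, Tfdp1 and Eftud1 had outside-exon ratios of 1.69, 1.69, 1.57 and 1.56 at 1.5 h and exon ratios of 1.24, 1.12, 1.05 and 1.22 at 5 h.

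The chosen genes had less sequence outside exons and higher exon levels than the rest, by their medians. The median exon level in the control was 73.01 CPM, against 61.7 CPM for the other features. Their median length outside exons was 16.9 kb, against 23.7 kb for the other features, and outside-exon reads were 8.16% of their gene reads in the control, against 14.4%. Of features with under 5 kb outside exons 10.8% were chosen, and of those with 50 kb or more 4.60%. Of features with at least 300 exon CPM in the control 10.3% were chosen. The limit on the exon ratio and the minimum of reads both act on these measures, and their part was not tested.

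Overlap between gene models can place the exon reads of 1 gene outside the exons of another. Another feature overlapped 198 of the chosen genes (44.0%), against 42.2% of the others. In 18, among them Hspe1, Nsun2, Orai1, Ranbp1 and Rpl15, an overlapping feature gained exon reads by at least 0.5 times the gain outside exons. Such cases were not counted among the other features, so the 18 have no background share beside them. Without these 18, 143 of 432 chosen genes (33.1%) had an exon ratio of at least 1.2 at 5 h. Of the 252 genes with no overlapping feature it was 75 (29.8%). On which strand reads were counted is not stated in the labels or headers.

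The 4 libraries held 30436816 to 33372060 unique gene reads and 26006350 to 29024598 unique exon reads, and lanes differed no more than counting predicts (chi-square per degree of freedom 1.001 to 1.013 for outside-exon reads). Which library was made with which of the 2 named kits is not stated, so kit and condition cannot be told apart. B lineage markers summed to 16938 to 19511 exon CPM, T and NK cell markers to 89.3 to 99.01, myeloid markers to 45.8 to 85.0, erythroid markers to 6.54 to 6.82 and stromal markers to 0.420 to 0.725. The B lineage sum includes Blnk, at 4177 to 4511 CPM, and the cells were Blnk-/- with a BLNK fusion. In that list Rag1 was at most 0.586 CPM and Rag2 at most 1.86, and Dntt went from 164 in the control to 56.8 at 5 h. Of the other lists, 6 of 18 T and NK, 2 of 15 myeloid, 3 of 13 erythroid and 5 of 12 stromal markers were at 0 in all 4 libraries. The lower myeloid sum at 5 h was that of Itgam, with 80.2 CPM in the control and 41.6 at 5 h. None of the chosen genes was a marker, and the part of other cells in the values was not tested.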

How the data were processed

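Per the labels' protocols, poly(A) RNA was selected for the 16 samples, and either a TruSeq or a NEBNext kit was used before Illumina sequencing. The submitters' processing notes name CASAVA 1.8.2 and the build mm10. No source used here names the aligner or the counter. Per the file headers, the deposited values are raw counts for each gene in each lane: total and unique gene, exon, exon-exon and intron-exon reads. They also hold gene-model columns, and 0 columns named an unmatched library. Control counts were the same in all 3 tables.

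Lanes were summed. Outside-exon reads are unique gene reads minus unique exon reads. With 1 library per condition no test was made. edgeR 4.0.16 (TMM) and DESeq2 1.42.0 gave only scaling factors in alternatives. Ratios have exact 95% Clopper-Pearson intervals. A count of 0 allows 3 reads, 0.0899 to 0.0986 per 1000000 gene reads. Selection and intervals were tested on simulated data.

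The genes and lists were chosen with earlier results of these data known. Genes named were the 8 with the largest outside-exon ratio at 1.5 h, the 8 largest and 6 smallest exon ratios at 5 h, the 6 with most outside-exon reads, the 4 largest outside-exon ratios at 0.5 h and the 4 smallest at 5 h, the 2 on each side of each threshold, and all on the lists. Members named in other groups, and Myc, were chosen after their values were seen. One gene that this rule names is not reported here.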

Additional observations from a re-analysis of the deposited data

How the results depend on the processing

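The thresholds set how many genes were chosen. Every setting still required a higher outside-exon ratio and limited the exon ratio at 1.5 h. The settings therefore cannot test the order in time, and the values at 5 h moved with them. An outside-exon fold of 1.3 gave 1091 genes, of which 123 had an outside-exon ratio of at least 1.5 at 5 h, 238 an exon ratio of at least 1.2 at 5 h against control and 278 against 0.5 h, with a median log2 exon ratio of 0.11. A fold of 2 gave 64, with 16 at 1.5 or more outside exons at 0.5 h and 13 at 5 h, 34 at 1.2 or more in exons at 5 h against control, 3 at 1.5 or more, 36 against 0.5 h, and medians of 0.30 (exon) and 0.051 (outside-exon, 5 h against 0.5 h). An exon limit of 1.1 gave 276 genes, with 37, 45, 66, 6 and 83 in the same order and an exon median of 0.095, and a limit of 1.5 gave 740, with 95, 139, 325, 65 and 338 and 0.23. Genes with no overlapping feature numbered 252, with 40, 42, 75, 6 and 92 and an outside-exon median of 0.080 against 0.12 for all. A minimum of 100 outside-exon reads left 39 genes at 1.5 or more at 0.5 h. Exon-exon junction reads, an alternative chosen after seeing the data, gave 26 genes with an exon ratio of at least 1.5 at 5 h.

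With outside-exon reads scaled by their own total, the median of all features at 5 h dropped by 0.16 on the log2 scale. This left 311 genes, 22 of them at 1.5 or more outside exons at 5 h, and reversed the median outside-exon ratio of 5 h to 0.5 h to -0.073. TMM and DESeq2 factors gave 477 and 482 genes, of which 410 and 423 were among the 450, and moved the median of all features by at most 0.035. In both, ribosomal proteins had the highest share, 66.7 and 64.6%, and nuclear transport receptors had 5 genes in place of 7. Leaving out each lane gave 445 to 453 genes, 133 to 141 with an exon ratio of at least 1.2 at 5 h, and a median log2 exon ratio of 0.13 to 0.16. Taking lanes as a replicate block gave 448 genes, 147 of them at 1.2 or more in exons at 5 h, and moved no count by over 1.5 times. Lanes are not biological replicates, so no paired test was possible. Depth limits single genes: 331 of the 450 had an outside-exon interval reaching below 1.5.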
